A study of Mus musculus with 6 samples.

Results

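The open chromatin of control oviduct muscle was described from the 3 WT libraries of a series of 6 ATAC-seq libraries, and the genotypes were not compared. ATAC-seq marks open chromatin with the Tn5 transposase, which cuts and tags DNA mainly where nucleosomes are absent. The members were the reproducible peaks that the authors called for the WT group at an irreproducible discovery rate (IDR) of 0.05. The list held 152082 entries over 56436 intervals that did not overlap each other, and these intervals are the regions described below. Each region was then ranked in each WT library by the best −log10 p of that library's own peaks over it, with rank 1 as the strongest.

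The cells were primary oviductal muscle cells from mated mice aged 8 to 12 weeks on day 2 of pregnancy. The genotype was labelled WT, and in the study's display of these data the controls are named Pbrm1 fl/fl, mice whose Pbrm1 gene carries loxP sites but which lack the Cre of the Pbrm1 cKO group. Oviducts were digested with trypsin, collagenase and dispase and the cells were passed through a filter, without a sort on a marker. They were kept for 4 h in medium with charcoal-stripped serum and for 2 h in medium with full serum. Each library was made from 50000 cells with 12 cycles of PCR, and short fragments free of nucleosomes were selected. The cells are therefore a brief primary culture, and other cells of the oviduct wall were not removed by a defining marker.

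Smooth muscle around the oviduct contracts to move gametes and early embryos towards the uterus, and day 2 of pregnancy lies within this transport. Contractile genes such as Acta2, Myh11, Tagln and Cnn1 are driven in smooth muscle by serum response factor (SRF), which binds a sequence called the CArG box together with the cofactors myocardin, Mrtfa and Mrtfb. In any tissue, open chromatin holds promoters, most of which are open in many cell types, and distal elements, which differ more between cell types and carry the binding sites of factors such as AP-1, a dimer of Fos and Jun proteins.

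The sequences that carry the results are shown first, all on GRCm38. The first pair, on the plus strand, are regions of extreme rank whose sequence also stands elsewhere. The region at chr2:69355506-69355696, nearest to Abcb11, ranked 4 in all 3 libraries, and the capitals mark the 129 bases that match the mitochondrial genome at 100% identity. The region at chrX:143482975-143483143, nearest to Pak3, had the highest mean fold enrichment among the named regions, and the capitals mark the 105 bases that have partial copies elsewhere in the genome.
Abcb11-nearest region: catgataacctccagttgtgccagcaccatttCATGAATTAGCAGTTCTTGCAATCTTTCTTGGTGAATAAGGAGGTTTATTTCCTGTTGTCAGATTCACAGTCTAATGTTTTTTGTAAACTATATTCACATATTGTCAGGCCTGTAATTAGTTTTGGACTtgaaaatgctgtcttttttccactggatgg
Pak3-nearest region: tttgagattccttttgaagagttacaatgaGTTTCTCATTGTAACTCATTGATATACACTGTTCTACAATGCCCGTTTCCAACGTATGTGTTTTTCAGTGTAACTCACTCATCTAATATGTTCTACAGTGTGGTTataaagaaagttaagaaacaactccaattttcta

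The next set are promoters from RefSeq (GRCm38.p6) in windows of 300 bases around the transcription start. The Prmt5 promoter at chr14:54517421-54517720 (minus strand) belongs to 1 of the best-ranked regions without a copy elsewhere, and capitals mark CCAAT, the NF-Y motif, in either orientation. The Srf promoter at chr17:46556113-46556412 (minus strand) and the Myl9 promoter at chr2:156775214-156775513 (plus strand) are shown for their CArG boxes, which are in capitals.
Prmt5 promoter: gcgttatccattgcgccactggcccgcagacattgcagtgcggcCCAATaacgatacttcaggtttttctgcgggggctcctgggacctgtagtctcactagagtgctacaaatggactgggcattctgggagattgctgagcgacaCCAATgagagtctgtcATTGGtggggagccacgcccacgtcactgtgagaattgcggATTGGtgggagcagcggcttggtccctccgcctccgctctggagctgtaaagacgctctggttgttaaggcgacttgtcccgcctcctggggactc
Srf promoter: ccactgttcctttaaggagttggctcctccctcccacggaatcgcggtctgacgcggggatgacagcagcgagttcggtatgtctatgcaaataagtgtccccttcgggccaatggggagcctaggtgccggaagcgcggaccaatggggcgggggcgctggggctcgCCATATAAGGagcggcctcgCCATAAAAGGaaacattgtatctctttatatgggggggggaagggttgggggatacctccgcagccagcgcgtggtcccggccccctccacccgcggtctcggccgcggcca
Myl9 promoter: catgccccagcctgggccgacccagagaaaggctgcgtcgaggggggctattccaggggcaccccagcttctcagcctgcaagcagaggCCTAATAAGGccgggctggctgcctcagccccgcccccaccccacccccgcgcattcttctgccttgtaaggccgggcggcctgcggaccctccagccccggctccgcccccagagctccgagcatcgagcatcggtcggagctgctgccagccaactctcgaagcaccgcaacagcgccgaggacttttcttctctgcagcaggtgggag

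The last set are windows of 200 bases around the summits of distal regions, on the plus strand. The window at chr7:70267199-70267398, in a region 87687 bases from the start of Nr2f2, its nearest protein-coding gene, and the window at chr13:75797879-75798078, in a region 35503 bases from the start of Ell2, are among the best-ranked distal windows without a copy elsewhere and with an AP-1 motif (TGANTCA, in capitals). The window at chr19:34265788-34265987 lies in the best-ranked distal region around Acta2, and its capitals mark a CArG box at bases 47 to 56 and an AP-1 motif at bases 69 to 75.
Nr2f2-side distal window: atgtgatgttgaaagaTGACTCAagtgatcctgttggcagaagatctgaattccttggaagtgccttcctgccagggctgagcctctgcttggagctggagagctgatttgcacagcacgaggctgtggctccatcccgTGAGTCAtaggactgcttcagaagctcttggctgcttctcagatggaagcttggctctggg
Ell2-side distal window: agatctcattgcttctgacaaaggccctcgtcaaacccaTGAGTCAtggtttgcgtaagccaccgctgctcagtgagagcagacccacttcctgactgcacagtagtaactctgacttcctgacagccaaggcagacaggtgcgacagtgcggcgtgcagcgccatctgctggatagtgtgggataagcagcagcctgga
Acta2 distal window: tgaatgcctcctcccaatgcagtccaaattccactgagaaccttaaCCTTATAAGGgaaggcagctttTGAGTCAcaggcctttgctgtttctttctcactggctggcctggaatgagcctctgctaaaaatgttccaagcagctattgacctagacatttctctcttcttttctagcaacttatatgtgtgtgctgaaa

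The lists of the 3 WT libraries held 300000 peaks each but differed in the tags behind them. The fold enrichment and p of a summit together give the number of tags piled over it, and 100% of the entries gave a whole number within 0.05. A tag is a read end extended to 150 bp, and not a whole fragment. The median listed summit held 14 tags in WT1, 13 in WT2 and 8 in WT3, and the strongest summit over a region held a median of 32, 29 and 17 tags. WT3 thus had the fewest tags per summit, and since total depth is unknown, fewer reads and weaker enrichment in WT3 cannot be told apart. Of the 56436 regions, 99.9% had an entry in WT1, 99.9% in WT2 and 98.0% in WT3, and 97.9% had an entry in all 3. The authors had selected these regions for reproducibility in this same WT group, a choice that by itself favours high shares. Of the 1118 regions that lacked an entry in exactly 1 library, 1056 lacked it in WT3. Such a gap in a list means only that no peak passed there in that library, not that the DNA was closed.

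The ranks of the libraries followed each other over the whole list. Spearman's rho across the 56436 regions was 0.853 for WT1 and WT2, 0.820 for WT1 and WT3, and 0.802 for WT2 and WT3, with a mean of 0.825 ± 0.0257 (SD of the 3 pairs). Regions share libraries and depth, so rho is a description across regions and carries no p. The regions had also been selected for reproducibility in this WT group, so rho is not an independent measure of replicate quality. Agreement was higher over the 20379 promoter regions, at 0.891 ± 0.0175, than over the 36057 distal regions, at 0.746 ± 0.0346. Intron regions, for example, held medians of 26, 24 and 14 tags in WT1, WT2 and WT3, against 52, 44 and 31 at promoters. What part these lower tag numbers had in the lower rho was not tested. Within the 5000 best regions by mean rank rho was 0.483 ± 0.0673, a value that the choice of a narrow range of the same ranks lowers by itself.

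**Figure D1:**
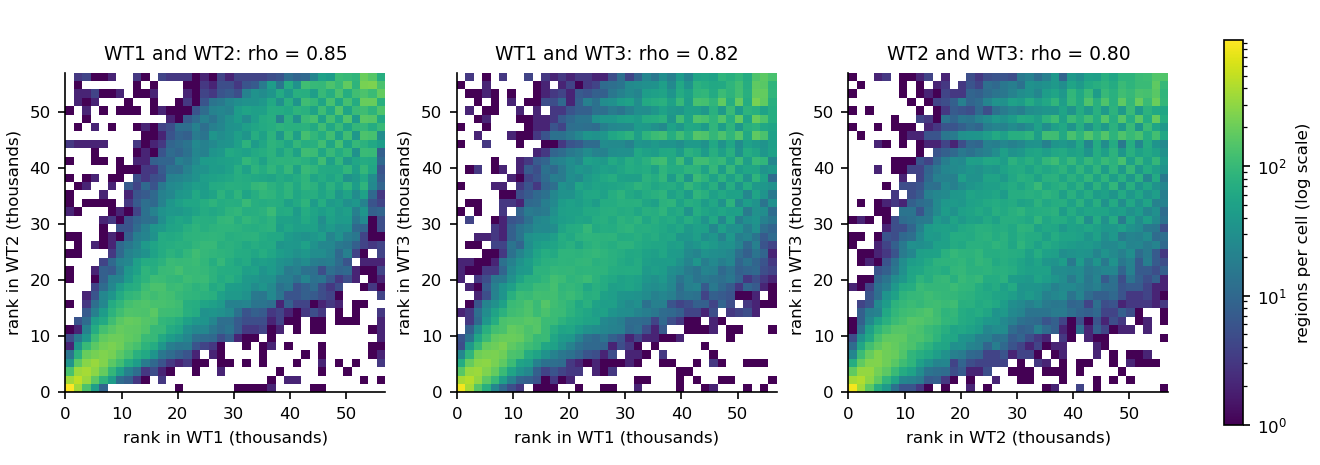
Ranks of the 56436 regions in each pair of WT libraries. Both axes give ranks in units of 1000 with the best at 0, and colour gives the number of regions per cell on a log scale. The cells lie along the diagonal in each pair, with bands at the weak end of WT3.

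The very best and the broad upper part of the list were shared, while the order in between was not fixed by 3 libraries. Of the 10 best regions of each library, 9 were the same in all 3. Of the 100 best, 27 were shared by all 3, of the 1000 best 374, of the 5000 best 3221 (64.4%), and of the 20000 best 14932 (74.7%). Among the 1000 regions with the best mean rank, 165 kept their rank within 2-fold across the libraries. The median SD of the log2 rank over these 1000 regions was 1.03.

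The top of the list was occupied by nuclear sequences that resemble mitochondrial DNA. Of the 10 best regions by mean rank, 9 matched the mitochondrial genome, of the 20 best 10, of the 1000 best 11, and of all 56436 regions 15. The 10 matches among the 20 best ran over 129 to 1042 bases at 95.1% to 100% identity, and 8 of the 10 had a pseudogene as their nearest gene. The strongest region, over the pseudogene Gm13340 at chr2:22589170-22590210, held 1159 tags in WT1, 1727 in WT2 and 1078 in WT3. Its match covered 1042 bases at 98.4% identity. The next, at chr12:97061407-97061818 and 40646 bases from the start of Gm47397, held 670, 962 and 555 tags. Reads from a nuclear copy and from the mitochondrial genome cannot be told apart over identical bases.

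The libraries stood in another order over these regions than over the rest. WT2 held the most tags in all 10 mitochondrial-like regions of the 20 best, with a median ratio of WT2 to WT1 of 1.43. In the other 10 regions of the 20 best, WT1 held the most tags in 9 and the median ratio was 0.830. Over the 989 regions of the best 1000 without such a match, WT1 was highest in 867 and the median ratio of WT2 to WT1 was 0.861. The ratio of WT3 to WT1 was 0.828 over the mitochondrial-like regions and 0.607 over those 989. The share of mitochondrial reads in each library was not analysed here.

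A region near Pak3, which encodes a kinase of the cytoskeleton, held sequence with partial copies but had no mitochondrial match. This region of 169 bases lies between genes, 35448 bases from the start of Pak3, and had a fold enrichment of 75.0 ± 0.785 (SD, n = 3). It ranked 3 in WT1, 8 in WT2 and 2 in WT3 with 385, 321 and 419 tags. WT3, with the fewest tags at the median summit, was the highest here. The part in capitals above had 16 partial copies in the genome, at 80% identity or more over at least 80 bases, and the closest reached 97.1%. What part these copies had in the rank of the region was not tested. The region at rank 11 by mean rank, over Gm21887 on chromosome X, had 1 near-identical copy. In all, 26 of the 1000 best regions had a copy elsewhere at 95% identity or more over 90% of their window.

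With those regions set aside, a choice made after the values were seen, the strongest regions were mainly promoters. Of the 12 best regions without a mitochondrial match or near-identical copy, 10 lay at promoters, and apart from the Pak3 region none had even a partial copy. Next after the Pak3 region came the promoter of Hjurp, whose product loads the centromeric histone CENP-A. It ranked 11, 13 and 15 in WT1, WT2 and WT3 with 312, 254 and 172 tags. The Prmt5 promoter, of an arginine methyltransferase, ranked 14, 19 and 20 with 214, 168 and 121 tags. The promoter of Cep290, a protein of the centrosome and cilium, ranked 20, 14 and 21, and that of Top1, the enzyme that relaxes DNA supercoils, ranked 24, 21 and 34. The promoters of Ttc14 (16, 37 and 12) and 9430038I01Rik (40, 28 and 18) came beside them. Those of Ptpn2, a tyrosine phosphatase, Nup107, of the nuclear pore, Ap1m1, of a clathrin adaptor, and Ctnna3, an alpha-catenin of cell junctions, had mean ranks from 45.7 to 52.3. None of the 12 ranked worse than 82 in any library.

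**Figure D2:**
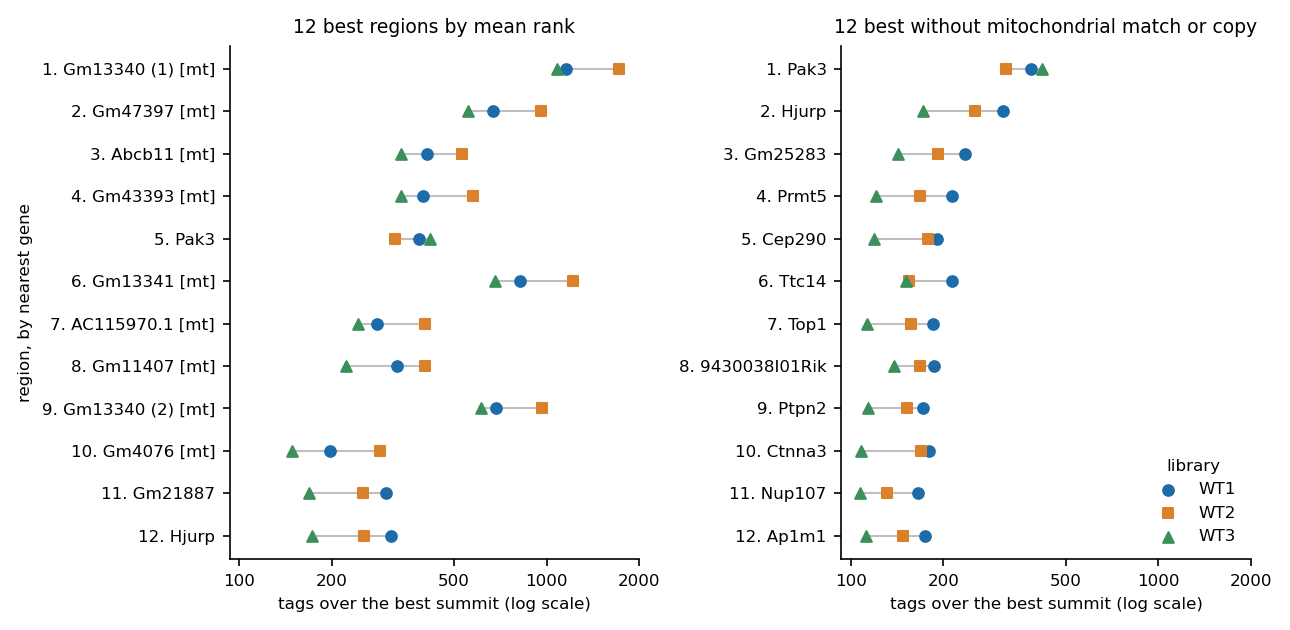
Tags over the best summit of each region in the WT libraries, on a log axis, for the 12 best regions by mean rank and for the 12 best without a mitochondrial match or near-identical copy. Regions are named by their nearest gene and [mt] marks a match to the mitochondrial genome. WT2 is highest in all 9 marked regions at left, and WT1 is highest in 11 of the 12 regions at right.

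These strong promoters shared a sequence composition that the ranking did not use. Windows of 200 bases around the summits of the 1000 best promoter regions had a median GC content of 63.8 ± 2.02% and 17.0 ± 1.00 CpG (mean ± SD of the 3 libraries' own 1000 best), against 61.0% and 13.0 over all 20379 promoter regions. They were wider, with a median of 862 ± 30.5 bp against 614 bp. Of the best, 21.1 ± 0.709% had protein-coding starts of both strands within 1 kb, in any order, against 9.28% of all promoter regions. A wider region reaches over more DNA in this count, and what part width had was not tested.

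The motifs of general promoter factors were frequent in the best promoters and those of AP-1 were rare. GGGCGG, bound by SP and KLF factors, stood on either strand in 67.5 ± 3.74% of the 1000 best promoter windows and in 46.5% of all promoter windows. CCAAT, bound by NF-Y, stood in 51.1 ± 6.40% against 27.9%, and CCGGAAG, bound by ETS factors, in 19.7 to 20.2% across the libraries against 10.7%. AAGATGGCG, bound by YY1, stood in 3.57 ± 0.473% against 1.90%, and the NRF1 motif in 2.47 ± 0.252% against 1.14%. TGANTCA went the other way, at 3.20 ± 0.265% of the best promoters and 12.2% of all promoters. TGACGTCA, the CREB and ATF motif, whose letters hold no full TGANTCA, stood in 3.30 ± 0.200% against 2.22%. These matches are letters in a window and not shown binding sites.

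Rank and genomic class went together in every WT library. A region counted as a promoter when it lay within 1 kb of a transcription start of GENCODE M21. Promoters made up 95.6% of the 1000 best regions of WT1, 94.1% of WT2 and 96.7% of WT3, a mean of 95.5 ± 1.31% (SD, n = 3). The share was 76.8 ± 4.55% of the 10000 best and 58.1 ± 3.30% of the 20000 best. Over all regions it was 36.1% (95% Wilson interval 35.7 to 36.5%, which covers counting error only), beside 31.5% in introns, 27.6% between genes and 4.78% in exons. WT3 had the highest promoter share at each of these cut-offs: of the 10000 best regions, 81.6% in WT3 were promoters, against 76.3% in WT1 and 72.5% in WT2. Over promoter regions the median summit held 52 tags in WT1, 44 in WT2 and 31 in WT3, and over intron regions 26, 24 and 14.

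**Figure D3:**
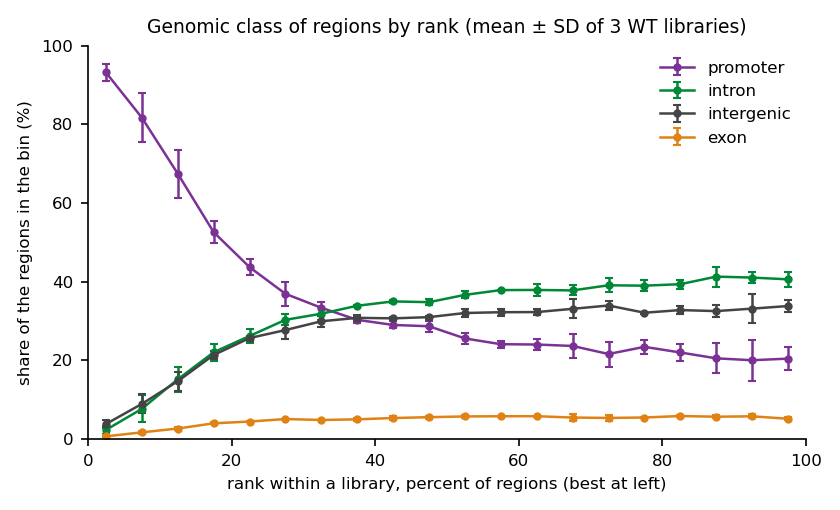
Genomic class of the regions in 20 bins of rank, from the best at left to the weakest at right, as the share of the regions in each bin (%). Points are means of the 3 WT libraries and bars are SDs. The promoter curve starts above 90% and crosses the intron and intergenic curves between 30 and 40 percent of the list.

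Distal regions, those over 1 kb from any annotated start, included repeated sequence among their 12 best. Of these 12 distal regions, 5 matched the mitochondrial genome, another was the Pak3 region, and the region nearest to E330020D12Rik had 1 near-identical copy. The best without any copy was an intergenic region at chr6:47650497-47651666, 55156 bases from the start of Ezh2, a histone methyltransferase of Polycomb. Its nearest annotated start, of Gm25283, lay 13354 bases away. It ranked 13, 16 and 16 with 235, 192 and 142 tags, and its window held 66.5% GC and 17 CpG. The next distal regions fell to a mean rank of 167 ± 185 (SD, n = 3), 38527 bases from the start of Ptma, of 275 ± 351, on the Ell2 side of chromosome 13, and of 353 ± 245, 15982 bases from the start of Ccnl1. The SD exceeded the mean in the first 2 of these 3 regions, so their order is not settled by 3 libraries.

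Among the 12 best distal regions without a mitochondrial match or copy, 7 had at least 60% GC in their window, against 5.01% of all distal regions. The shares over the 1000 best distal regions of each library were 16.6%, 12.3% and 21.1%. Of these 12, 3 held an AP-1 motif, and the Pak3 and Pum2 regions had partial copies. A region 87687 bases from the start of Nr2f2, which encodes the receptor COUP-TFII of mesenchymal cells, held 2 AP-1 motifs, shown above, and ranked 518, 238 and 964 with 124, 112 and 67 tags. Others among the 12 had Arid1b, a subunit of SWI/SNF, Irf2, an interferon factor, and Prdm2, a zinc finger protein, as their nearest protein-coding genes, at 148955, 52647 and 32093 bases.

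AP-1 was the most frequent of the searched motifs in distal regions. TGANTCA stood in 44.2% of the 36057 distal windows, in 12.2% of promoter windows and in 5.82% of 70067 windows of the same length placed 2 kb to either side of distal summits, where no region lay. That neighbour comparison was added after the data were seen. The share followed rank over deciles of the distal regions. It was 55.3 ± 1.77% in the best decile (mean ± SD of the 3 libraries), 43.0 ± 0.185% in decile 5 and 37.1 ± 1.88% in decile 10. In the 1000 best distal regions it was 53.0% in WT1, 55.9% in WT2 and 50.4% in WT3, a mean of 53.1 ± 2.75%. Towards the very top the share did not rise further, with means of 55.45% in the 2000 best and 49.7% in the 500 best. The median mean rank was 31784 for the 15943 distal regions with the motif and 35828 for the 20114 without it.

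Other distal motifs differed in how they followed rank. CATTCC, bound by TEAD factors, stood in 18.7% of distal windows and 10.7% of the neighbouring windows, with 19.8 ± 1.08% in the best decile and 17.5 ± 0.624% in the last. The CTCF motif, of the factor that anchors chromatin loops, stood in 6.28% of distal windows and 0.137% of neighbours, and was less frequent in the best decile (4.40 ± 0.329%) than in the last (6.27 ± 0.200%). GGGCGG stood in 7.48% of distal windows and 2.74% of neighbours, with 12.7 ± 1.63% in the best decile, whose median GC content was 51.0 ± 0.500% against 47.8 ± 0.577% in the last. CCAAT was no more frequent in distal windows (22.3%) than in neighbours (24.7%). The neighbouring windows were not matched for GC content, with a median of 45% against 49% in distal windows. What part GC content had in these shares was not tested. The joint motif of the steroid receptors stood in 0.374% of distal windows and 0.337% of neighbours, and AGATAAG, bound by GATA factors, in 2.97% and 2.69%. AACCACA, bound by RUNX factors, stood in 6.15% and 5.10%, and CATCTG, an E-box of HAND and other bHLH factors, in 19.0% and 15.5%.

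**Figure D4:**
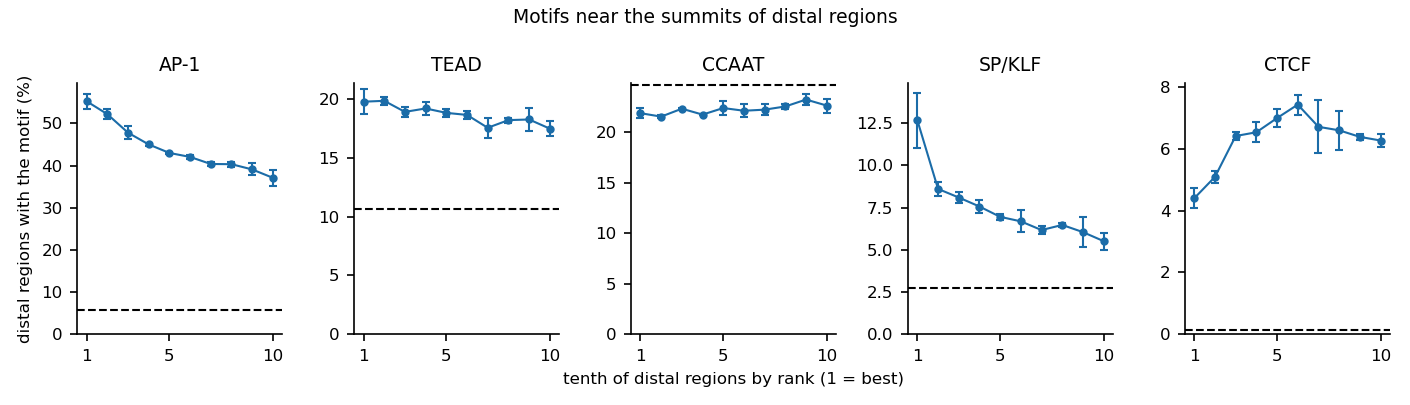
Share of distal regions (%) with a motif in the 200 bp around the summit, by decile of rank from the best (1) to the weakest (10). Points are means and bars SDs of the 3 WT libraries, and the dashed line is the share in neighbouring windows 2 kb away. The AP-1 share falls from 55.3% to 37.1% and lies above the dashed line of 5.82% throughout, while CCAAT stays below its line.

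The muscle label was read against marker genes. Of all 21728 protein-coding genes, 61.5% had a WT region within 1 kb of a start, and 30.3% had one among the 10000 best of all 3 libraries. Of 14 contractile genes of smooth muscle, 13 had a promoter region, but only 2 were in that stronger class. Their promoters were of middle rank, with a median mean rank of 20613 against 7853 over all genes with a promoter region. In bulk cells, fewer cells of a type and less open chromatin per cell cannot be told apart.

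The 4 label markers had a promoter region with an entry in every WT library. Their mean ranks, from 20285.5 (Tagln) to 40630.5 (Cnn1), were worse than the median of 16660 over all promoter regions. The region at the promoter of Acta2, smooth muscle actin, spanned chr19:34254189-34255904 and held 53 tags in WT1, 54 in WT2 and 24 in WT3, with ranks of 19775, 17086 and 25139.5. Myh11, smooth muscle myosin, held 38, 37 and 18 tags. Tagln, transgelin, held 56, 44 and 24 tags over the better of its 2 promoter regions, whose summit lay 1044 bases from the start. Cnn1, calponin, was the weakest of the 4 with 21, 25 and 15 tags and ranks of 49197.5, 36558.5 and 36135.5. In fold enrichment Acta2 stood at 7.84, 8.13 and 5.87 and Cnn1 at 5.53, 7.31 and 5.32.

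Other contractile genes spread over a wide range. Cald1, caldesmon, had the best contractile promoter at a mean rank of 7129 ± 2847, followed by Smtn, smoothelin, at 8438 ± 985 and Tpm1, tropomyosin, at 9933 ± 1241. Des, desmin, stood at 34728 ± 5063 and Lmod1, leiomodin, at 44536 ± 4946. Actg2, the enteric smooth muscle actin, had no promoter region, and its best distal region within 50 kb ranked 29282 on average.

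The regulators of the muscle programme ranged from strong to weak promoters. Of 16 regulators, 15 had a promoter region (93.8%, against 61.5% of all protein-coding genes). Among the 10000 best in all libraries were 4, which is 25% of the list against 30.3% of all protein-coding genes. Their median mean rank was 10112, between the 20613 of the contractile genes and the 7853 of all genes with a promoter region. Mrtfb had a mean rank of 3170 ± 1495 with 110, 97 and 50 tags, and Mrtfa of 4291 ± 798 with 111, 95 and 70 tags. Srf followed at 5383 ± 731 with 105, 96 and 67 tags, and Mef2a at 5990 ± 1719. The TEAD factors stood at 9842 ± 2826 for Tead4, 10044 ± 2402 for Tead3 and 12356 ± 1416 for Tead1. Myocd, which encodes myocardin, was the member without a promoter region. It had 4 distal regions within 50 kb, of which the best held 28, 31 and 11 tags, 23.2 kb from the start.

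CArG boxes were rare in open windows. The motif stood in 0.913% of promoter windows (186 of 20379), in 1.28% of distal windows (462 of 36057) and in 1.02% of neighbouring windows. Within the lists of named genes, the window at the promoter summit held one at Myl9, the light chain of myosin, at Srf itself, at Nr2f2, and at Fosb, Junb and Egr1. Of the 69 distal regions within 50 kb of the 14 contractile genes, 5 held a CArG box, 1 each at Acta2, Des and Synpo2 and 2 at Lmod1. The other lists held 1 among 93 regions for the regulators, at Mrtfb, 2 among 38 for genes of unrelated tissues, counted at Prm1 and Prm2, and none elsewhere. AP-1 motifs stood in 26 of the 69 contractile regions (37.7%, against 44.2% of all distal regions), in all 4 around Acta2 and in neither of the 2 around Actg2. The one at chr19:34265543-34266185, 10.3 kb from the start of Acta2, held both motifs, with 41, 36 and 17 tags and a mean rank of 20771 ± 4625. The list counts are small, and a region within 50 kb of more than 1 member was counted for each.

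Genes of the AP-1 family and immediate early genes, many of which serum induces within minutes, had promoters of good rank. This list had a promoter region in 13 of 14 (92.9%, against 61.5% of all protein-coding genes). Of these, 7 were among the 10000 best of all libraries, that is 50% of the list against 30.3% of all protein-coding genes. The median mean rank was 4080, against 7853 over all genes with a promoter region. Jun stood at 1968 ± 631 with 166, 160 and 102 tags, Egr1 at 2525 ± 475 and Maff at 2865 ± 871. Jund, Klf6, Atf3 and Fosl2 followed between 3868 and 4080. Fos stood at 9181 ± 3896, and its best distal region, 11.1 kb from the start, at 2770 on average with 120, 90 and 73 tags. Batf had no promoter region. The cells had spent hours in culture with serum after enzymatic digestion, and what part this had in these ranks was not tested.

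All 6 receptors for steroid hormones had a promoter region, against 61.5% of all protein-coding genes, but mostly a weak one. Only 1 was among the 10000 best of all libraries, that is 16.7% of the list against 30.3% of all protein-coding genes. Their median mean rank was 29225, against 7853 over all genes with a promoter region. Nr3c2, the mineralocorticoid receptor, had the best promoter at 3937 ± 2129, and Nr3c1, the glucocorticoid receptor, stood at 10906 ± 2180. The estrogen receptor Esr1 stood at 24296 ± 6313 with 32, 35 and 22 tags and had 18 distal regions within 50 kb, of which 9 held an AP-1 motif, a share near the 44.2% of all distal regions. Pgr, the progesterone receptor whose locus carries the Cre in the knockout mice of the series, spanned chr9:8899976-8902074 and stood at 37086 ± 8202 with 35, 30 and 24 tags. Esr2 (34155 ± 5006) was next to it in order, and the ranges of mean ± SD of the pair overlapped.

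Genes of the Mullerian mesenchyme, from which the wall of the oviduct forms, had a promoter region in 14 of 20. This is 70%, near the 61.5% of all protein-coding genes. Only 1 was among the 10000 best of all libraries, that is 5% of the list against 30.3% of all protein-coding genes. Their median mean rank was 18174, against 7853 over all genes with a promoter region. Among those described here, Nr2f2 stood at 8056 ± 3903, Wt1 at 8567 ± 1910, Osr2 at 8629 ± 4984 and Emx2 at 12197 ± 3930. Hoxa10, a marker of uterine receptivity in the study, stood at 18185 ± 6782. Hoxa9, the Hox gene of the oviduct, ranked worse, at 50650 ± 2326. Hoxa11 and Hoxa13, which mark uterus and vagina, had no promoter region, nor had Amhr2, Nr2f1, Prrx1 and Wnt5a.

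Markers of other cells differed by list, read against the 61.5% of all protein-coding genes with a promoter region. Of 13 genes of oviduct epithelium, 10 had none: Epcam, Cdh1, Krt7, Krt8, Krt18, Pax8, Ovgp1, Grhl2, Esrp1 and Cldn7. The 3 with one were Foxj1, of ciliated cells, at 4582 ± 943, Muc1 at 11968 ± 2124 and Elf3 at 20002 ± 2177. Several of the 10 still had distal regions within 50 kb, 7 around Krt8 and 4 around Pax8. Of 11 immune genes 2 had a promoter region, Cd68 and Csf1r, and of 6 pericyte genes 2, Kcnj8 and Abcc9. Endothelial genes had one in 7 of 10 (70%), all outside the stronger class, with 25, 23 and 11 tags at Pecam1, whose region lay nearer to the start of Milr1. Fibroblast genes had one in 8 of 11 (72.7%), with Vim at 5989 ± 839, Fn1 at 6289 ± 1285 and Pdgfra at 34838 ± 7722. Of 20 genes of unrelated tissues 2 had one, Ckm and Actn3, the latter in a region nearer to the start of Zdhhc24.

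Ribosomal proteins and olfactory receptors were read as broadly active and mostly silent genes. Of 83 ribosomal protein genes, 80 had a promoter region (96.4%, against 61.5% of all protein-coding genes). In the stronger class were 69 of them (83.1% of the list, against 30.3% of all protein-coding genes). Their median mean rank was 4086, against 7853 over all genes with a promoter region. Of 1134 olfactory receptor genes, 4 had a promoter region (0.353%, against the same 61.5%).

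**Figure D5:**
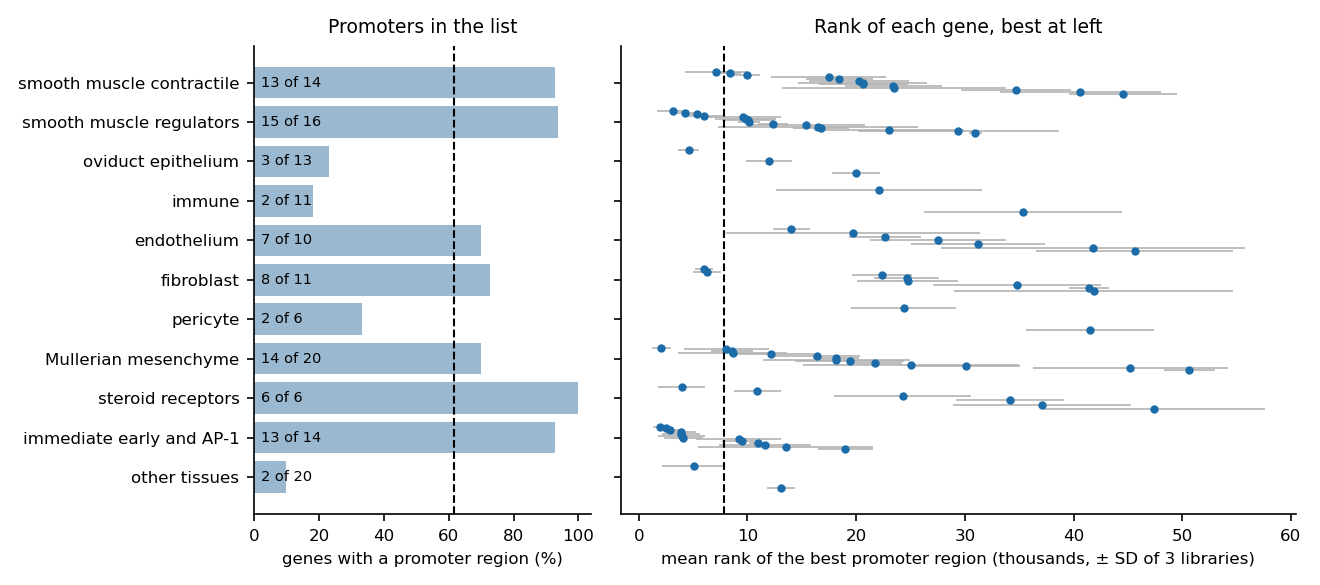
Left, the share of each gene list with a WT promoter region (%), with counts, and a dashed line at 61.5% for all protein-coding genes. Right, the mean rank of the best promoter region of each gene (in units of 1000) with the SD of the 3 WT libraries as bars, and a dashed line at the median of all genes with a promoter region. Contractile genes have a region in 13 of 14 cases but lie mostly right of the line, while 7 genes of the immediate early and AP-1 list lie left of it.

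Some genes stood beside many distal regions. Among the 10404 protein-coding genes that were nearest to at least 1 distal region, the median number was 2, and 93 genes had at least 20. Lpp, which encodes a focal adhesion protein abundant in smooth muscle, was nearest to 48, followed by Pde4d, a cAMP phosphodiesterase, with 43 and Myc with 36. Med13l, of the Mediator complex, Zfp608, Rbms3, an RNA-binding protein, and Bmper, which binds bone morphogenetic proteins, had 33 each. The regions nearest to Myc reached over 1436 kb, with 3 within 50 kb of a start and a median distance of 332 kb, while 30 of the 43 around Pde4d lay within 50 kb. Of these regions 15, 18 and 14 around Myc were among the 20000 best of WT1, WT2 and WT3, and 8, 12 and 9 around Lpp. Against 44.2% of all distal regions, AP-1 motifs stood in 24 of 48 at Lpp, 24 of 43 at Pde4d and 22 of 36 at Myc, in 15 of 33 at Med13l, and in 12 of 30 at Dlc1 and 13 of 29 at Foxp1, which also rank among the 12 genes with most distal regions. Such counts depend on the length of DNA over which a gene is the nearest.

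A few regions of good mean rank differed widely between libraries. Among the 5000 best by mean rank, the 6 with the largest SD of log2 rank were led by an intron region nearest to Cldn34d on chromosome X, which ranked 1955.5 in WT1, 4490.5 in WT2 and 17 in WT3. Its window had 15 partial copies in the genome, the closest at 94.4%. The Trim27 promoter ranked 6406, 6933 and 45, a region 35326 bases from the start of Gm13191 ranked 5410, 3459 and 37, and the Fam174a promoter ranked 5459.5, 3549.5 and 44, all best in WT3. The promoters of Ergic2 (2803, 39 and 4370.5) and 1810013L24Rik (1995, 22 and 662) were best in WT2. WT3 held the most tags in 4 of these 6 regions although its median summit held the fewest. Except at Cldn34d these windows had no partial copy.

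The X chromosome held fewer regions than any autosome for its length. It had 1062 regions, or 6.21 per Mb, against 16.6 to 33.4 per Mb on the autosomes, and 50.6% of them were promoters. The mice were females, yet 3 regions lay on the Y chromosome, near Mid1-ps1, with 35, 31 and 28 tags in the first, 35, 41 and 21 in the second and 70, 66 and 46 in the third. Their windows had 18, 2 and 4 partial copies elsewhere, and the origin of these tags was not tested.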

How the data were processed

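The files were peak lists of primary oviductal muscle cells. The authors used the ATAC-seq pipeline of ENCODE, and the submitters' processing notes name cutadapt, Bowtie2, MACS2 and GRCm38.p5. By the names of the deposited lists, duplicate and mitochondrial reads had been removed before peaks were called. Each library's list holds its 300000 best peaks at a p of 0.01. For the WT group the authors deposited 1 conservative list at an IDR of 0.05. Which replicates entered it is not given in the sources used here, and its values were not used as replicates. In each list the authors give a fold ratio of the summit over local background, a −log10 p, a −log10 q and a score. The deposited score of the IDR list served only for an alternative minimum of 830. The lists hold no read counts, and total depth is unknown here.

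IDR entries were merged where they shared 1 bp, and each region took the best −log10 p of a library's entries over it, where a missing entry took the last rank and ties shared their mean rank. Genes came from GENCODE M21. Regions within 1 kb of a transcription start were promoters. GC and motifs were read in 200 bp around the IDR summit on both strands. The CArG, CTCF, NRF1 and steroid receptor motifs are described by name. Matches to the mitochondrial genome and to the rest of GRCm38 were found with BLAST 2.17.0. Older symbols of Mrtfa and Mrtfb were matched through RefSeq.

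With 1 group of 3 libraries no test between groups was made, and values are given per library or as mean ± SD. Libraries labelled as replicates may share technical steps. The members and gene lists were chosen with earlier results of these data known. The named regions were the 12 with the best mean rank, the 12 best distal ones, the genes nearest to most distal regions, the members of the gene lists and the 6 regions with the largest SD of log2 rank among the 5000 best. Regions of repeated sequence were kept. The 12 best without a mitochondrial match or near-identical copy were added after the data were seen. Merging, ranking, tag recovery, nearest starts and the motif search were tested on simulated entries with known answers. The Pbrm1 cKO files were not used here. Some members of the gene lists are counted but not reported by name here.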

Additional observations from a re-analysis of the deposited data

How the results depend on the processing

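No paired analysis was possible because the report has 1 group and makes no comparison between groups. The share of regions with an entry in all 3 libraries was 97.9% and became 96.5% when at least 50% of an entry had to lie inside the region, 96.1% with entries at a q of 0.05 or less, 95.4% with the 200000 best entries per library and 99.4% for regions with an IDR score of at least 830. It ranged from 97.9% to 99.8% when 1 library was left out, highest without WT3. The mean rank correlation of 0.825 became 0.780 when fold enrichment set the rank, 0.746 for non-promoter regions and 0.879 when tags set it, and ranged from 0.802 to 0.853 with 1 library left out, highest without WT3. The shared part of the 1000 best regions, 37.4%, became 28.8% by fold, 44.2% by tags, 25.6% of the 500 best and 48.2% of the 2000 best. It ranged from 50.2% to 57.5% between pairs of libraries, highest at 57.5% without WT3. A pair always shares at least as many regions as all 3 libraries do, so pairs cannot fall below 37.4%. The promoter share of the 1000 best, 95.5%, became 83.3% by fold and 93.1% with protein-coding starts only, and ranged from 94.9% to 96.2% with 1 library left out. The promoter share of all regions, 36.1%, became 45.0% within 3 kb, 32.0% with protein-coding starts only and 41.1% at an IDR score of at least 830. The AP-1 share of the 1000 best distal regions, 53.1%, became 36.1% in windows of 100 bp and 59.3% in windows of 400 bp, where all distal regions stood at 31.1% and 49.1%. It became 56.7% by fold, 48.1% by tags and 49.7% in the 500 best, and ranged from 51.7% to 54.5% with 1 library left out. Ranking by fold kept 7 of the 12 best regions and 7 of the 12 best distal regions. Ranking by tags, added after the data were seen, kept 11 and 10. The cause of these moves was not tested, and the 13 contractile genes with a promoter region became 12 at the IDR score minimum. The low tag numbers of WT3 limit what can be said of weak regions, and single ranks within the best 1000 are not resolved by 3 libraries.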
